A study of Homo sapiens with 6 samples.

Results

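Collagen genes were taken as every gene in the table whose symbol is COL, a number, A and a number, which gave 44 of 61806 genes. They fell into 11 genes of fibrillar chains, 9 of network-forming chains, 5 of beaded filament chains, 10 of FACIT chains (collagens that lie on the surface of fibrils), 4 of transmembrane chains, 2 of multiplexins and 3 others (COL7A1, COL26A1 and COL28A1). RNA was sequenced from U87-MG, an established human glioblastoma cell line, in 6 libraries. The titles mark 3 of them as NC, the negative control, and the remaining 3 are libraries labelled GRIK1 siRNA. Both groups are thus the same line and differ in the labelled knockdown of GRIK1, a kainate-type glutamate receptor subunit. The genotype labels read wildtype for NC and GRIK1 knockdown for the other group. The methods describe transfection with a lipid reagent and several siRNA sequences, while the design text speaks of shRNA. The paper adds that the sequence with the strongest knockdown was carried into later experiments, without naming the sequence for the RNA libraries, and the labels do not settle whether the numbers 1 to 3 are replicate cultures or siRNA sequences. Since nothing says that the libraries came from separate cultures, the p-values measure the spread between these libraries, which may be technical.

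Collagens are built from chains in which glycine recurs at a fixed spacing, written Gly-X-Y, and matching chains wind around each other into a rope-like helix. Fibrillar collagens such as type I and type V assemble into banded fibers that bear load, and type V chains are known for setting the diameter at which type I fibers form. Network collagens such as type IV make the sheets of basement membranes, and type VI collagen forms beaded filaments near the cell surface. In the brain, fibrillar collagens are normally sparse outside vessels and meninges, and glioblastoma cells grown in culture are known to make them.

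The repeat can be read in the exon sequences of the 4 fibrillar genes on which the results below turn, types I and V. In each, the first coding exon of 54 bases made only of whole repeats is shown, from the transcript with the longest coding sequence in the GENCODE 29 annotation. Capitals mark the glycine codon that opens each of the 6 repeats.
COL1A1, exon 8, chr17:50197949-50198002, minus strand of GRCh38: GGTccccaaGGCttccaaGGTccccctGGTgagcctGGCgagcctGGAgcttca
COL1A2, exon 8, chr7:94404693-94404746, plus strand: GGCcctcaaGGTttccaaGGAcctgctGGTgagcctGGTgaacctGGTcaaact
COL5A1, exon 15, chr9:134753850-134753903, plus strand: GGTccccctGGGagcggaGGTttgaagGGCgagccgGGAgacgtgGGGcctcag
COL5A2, exon 6, chr2:189097277-189097330, minus strand: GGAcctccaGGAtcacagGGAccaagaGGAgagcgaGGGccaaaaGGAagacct

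Repeat length separated the fibrillar genes from every other class. The longest unbroken run of codon triplets opening with a glycine codon was between 216 and 343 in the 11 fibrillar genes, and 113 at most in the FACIT genes, 87 in the beaded filament genes and 66 in the network genes. Coding exons of 54 bases numbered 21 to 33 per fibrillar gene, 4 to 28 per FACIT gene and at most 3 per beaded filament or network gene. COL1A1 had a run of 338 repeats and COL1A2 one of 339.

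The targeted gene was counted first, as a check of the labels. GRIK1 had 18, 9 and 8 counts in NC and 15, 20 and 20 counts in those labelled GRIK1 siRNA. Its FPKM (fragments scaled to the length of the gene and the library total) was 0.233 ± 0.131 (SD, n = 3) in NC and 0.34 ± 0.0436 (SD, n = 3) in the other group, a difference of 0.12 on the scale of log2(FPKM + 1) that gave p = 0.4 in a two-sided exact permutation test. The GRIK1 level thus did not go down with the label in these libraries, and every direction below is between libraries by label. The check is weak, with 8 to 20 counts per library and a test that cannot give a p under 0.1. The paper reports an efficient knockdown of GRIK1 in U87-MG cells, measured apart from these libraries. The total counts ran from 11099909 to 14006968 per library. NC replicate 3 stood apart from the other 5 libraries: ribosomal protein genes took 8.45% of its counts against 4.35% to 4.99% elsewhere. The log2 fold changes of the named genes are therefore given with and without this library. Among markers of the labelled glioma cell type, VIM (vimentin) and CD44 were abundant, at 981 and 63.8 FPKM on average in NC, while GFAP, the filament protein that defines astrocytes, was at 0.08 FPKM in NC and 0.263 FPKM in the other group. The glial markers OLIG1 and AQP4 had 0 counts in all 6 libraries and S100B had at most 1.

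Of the 44 collagen genes, 19 reached a mean of 0.5 FPKM over the 6 libraries and were tested, 6 fibrillar, 4 network, 3 beaded filament, 4 FACIT, 1 multiplexin (COL15A1) and 1 other (COL7A1). None of the 4 transmembrane genes was among them. Of the 25 genes below that level, COL2A1, COL6A5, COL19A1, COL22A1 and COL23A1 had 0 counts in every library, which allows up to 3 counts in each, or 0.062 FPKM for COL23A1 and less for the others. The remaining 20 had at most 0.54 FPKM in any library. The tested gene nearest the limit on the upper side was COL9A2 at 0.52 FPKM, together with COL3A1 at the same mean, and the nearest below was COL11A2 at 0.277 FPKM.

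U87-MG RNA held mainly types I and VI. Together they took 78.5% to 81.6% of all collagen counts in every library. All collagen genes together took 0.804%, 0.759% and 0.209% of the counts in NC replicates 1 to 3, and 1.21%, 1.2% and 1.19% in those labelled GRIK1 siRNA, with Wilson 95% intervals reaching at most 0.00609 percentage points to either side. Intervals cover counting error only. The share was higher in each library labelled GRIK1 siRNA than in each NC library, and NC replicate 3 lay far below its group. The order of the genes also differed between the groups. COL6A2 had the highest FPKM of the collagen genes in each of the 3 NC libraries, and COL1A2 in each of the 3 others. Because the RNA is bulk, fewer cells that make a collagen and less of its RNA per cell cannot be told apart.

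**Figure D1:**
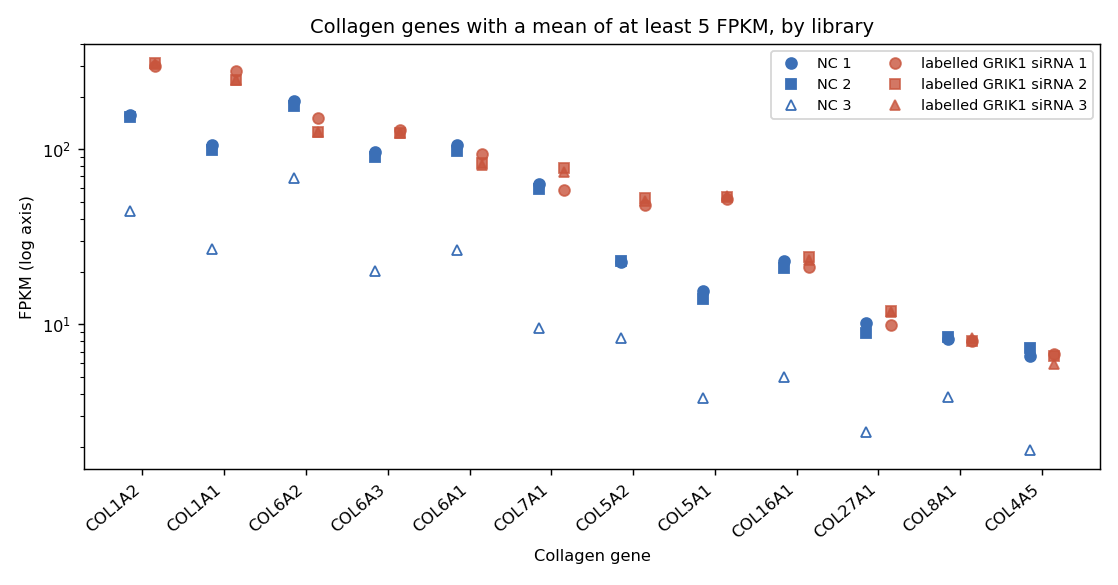
FPKM on a log axis of the 12 collagen genes that average 5 FPKM or more, 1 point per library, blue for NC (NC replicate 3 as an open triangle) and red for the libraries labelled GRIK1 siRNA. COL1A2, COL1A1, COL5A2, COL5A1 and COL6A3 lie higher in all 3 red points, and the open triangle is the lowest point of every gene.

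The 4 main genes of the fibrillar types I and V, COL1A1, COL1A2, COL5A1 and COL5A2, had higher levels in each library labelled GRIK1 siRNA than in each NC library, with fitted folds of 2.50 to 4.63, or 1.94 to 3.54 without NC replicate 3. The tested genes of network, beaded filament and FACIT chains had log2 fold changes between -0.72 and 0.82. In edgeR's quasi-likelihood test with Benjamini-Hochberg adjustment over 15870 genes, 1 of 19 collagen genes was called, COL5A1, where a call needed both an adjusted p below 0.05 and a change of more than 1 on the log2 scale in either direction. The background of such calls over all tested genes was 1.41%. At an adjusted p under 0.05 without the fold limit, 1 collagen gene was higher and 0 were lower, against a background of 1.61% higher and 1.48% lower. An unadjusted p under 0.05 was reached by 5 of 19, the 4 genes above and COL15A1, at a background of 25.1%. In value, 16 of 19 were higher and 3 lower, with a median log2 fold change of 0.44 against -0.02 over all tested genes.

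Leaving out NC replicate 3 raised the number of collagen genes that passed and put some of them on the lower side. In that fit 12 of 19 had an adjusted p under 0.05, 9 higher and 3 lower, where the background was 16.9% higher and 18.3% lower. The calls with the fold limit were 4 (COL5A1, COL3A1, COL1A1 and COL5A2) against a background of 3.09%. The median log2 fold change of the 19 was 0.20 in this fit, against 0.01 over all tested genes. DESeq2 on all 6 libraries called COL1A1, COL1A2, COL5A1 and COL5A2, at a background of 3.09%. In TMM-scaled CPM (counts scaled to the library total), the 3 NC and 3 other libraries did not overlap for 7 collagen genes that were higher (background 19.4%) and 1 that was lower (background 19.0%), and without NC replicate 3 for 8 higher (28.0%) and 5 lower (28.5%).

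**Figure D2:**
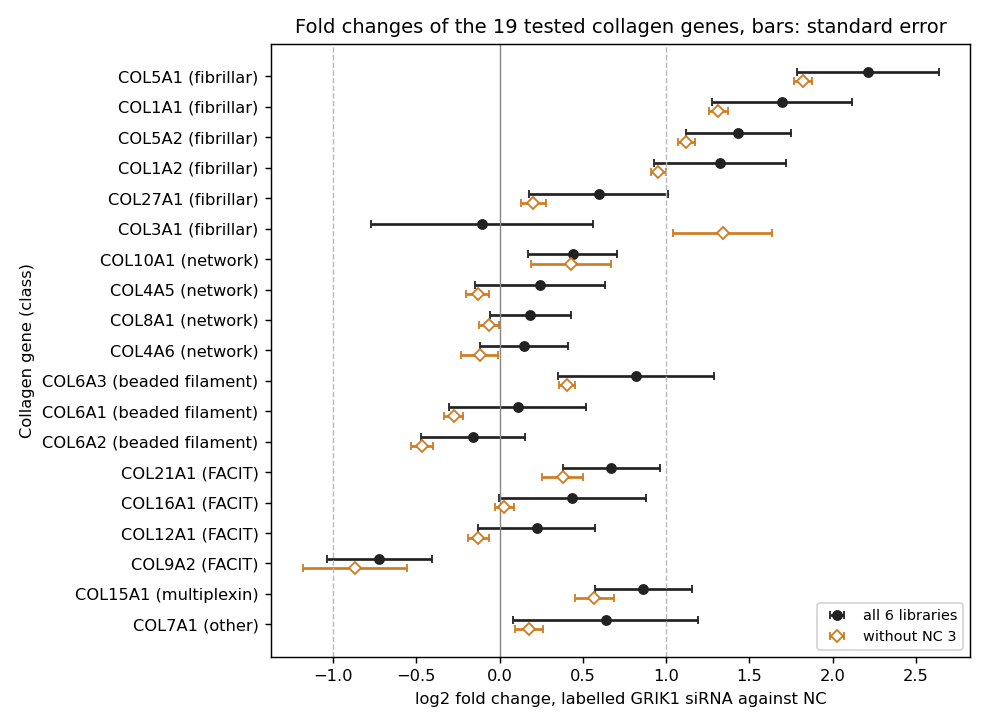
log2 fold change of the 19 tested collagen genes, libraries labelled GRIK1 siRNA against NC, by class, with bars of 1 standard error. Black points use all 6 libraries and open diamonds leave out NC replicate 3. The fibrillar genes COL5A1, COL1A1, COL5A2 and COL1A2 lie highest with all 6 libraries, COL3A1 moves from -0.11 to 1.34 and above COL1A1, and most other classes move toward or below 0 without that library.

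The largest log2 fold change of the 19 tested collagen genes was in type V. COL5A1 (ENSG00000130635, chr9:134641803-134844843, plus strand) encodes the alpha 1 chain. Its FPKM was 15.43, 14.03 and 3.81 in NC and 51.74, 53.71 and 53.81 in those labelled GRIK1 siRNA. The groups did not overlap, and the 3 latter libraries were nearly alike. COL5A1 rose by 2.21 on the log2 scale (SE 0.43, adjusted p = 0.0433), or 4.63-fold, and by 1.82 (SE 0.05) without NC replicate 3. On leaving out each library in turn, the edgeR adjusted p ranged from 3.52e-13 without NC replicate 3 to 0.226 without GRIK1 siRNA replicate 2. It was 0.0517 with scaling to total counts and no library left out. The call was lost when any library other than NC replicate 3 was left out, with a log2 fold change between 2.20 and 2.50 each time.

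COL5A2 (ENSG00000204262, chr2:189031898-189225312, minus strand) encodes the partner chain. It had 22.60, 23.01 and 8.36 FPKM in NC and 47.89, 52.85 and 50.81 FPKM in the other group. Again the groups did not overlap and NC replicate 3 was the lowest. The log2 fold change was 1.43 (SE 0.32, adjusted p = 0.0572), which missed the threshold, and 1.12 (SE 0.05) without NC replicate 3, where it passed. The third type V gene, COL5A3, had few counts, 5, 5 and 3 in NC and 15, 11 and 18 in the other group, below the level for testing.

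Type I collagen, the main fibrillar collagen of connective tissue, is made of products of COL1A1 and COL1A2. COL1A2 (ENSG00000164692, chr7:94394895-94431227, plus strand) had 156.78, 153.66 and 44.17 FPKM in NC and 300.21, 310.25 and 307.44 FPKM in those labelled GRIK1 siRNA. Its log2 fold change was 1.32 (SE 0.40, adjusted p = 0.107), and 0.95 (SE 0.04) without NC replicate 3, where the adjusted p passed. By mean FPKM it ranked 119 among all tested genes. COL1A1 (ENSG00000108821, chr17:50184101-50201632, minus strand) had 106.27, 98.62 and 26.94 FPKM in NC and 280.33, 247.64 and 249.44 FPKM in the other group. Its log2 fold change was 1.70 (SE 0.42, adjusted p = 0.0744), and 1.31 (SE 0.06) without NC replicate 3, where it was called. For both genes the groups did not overlap, and NC replicate 3 held about 0.323 (COL1A2) and 0.298 (COL1A1) times the level of the other NC libraries.

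The other fibrillar genes differed from this pattern. COL3A1 (ENSG00000168542, chr2:188974373-189012746, plus strand), the type III chain that often accompanies type I in tissue, was scarce, with 15, 16 and 105 counts in NC and 45, 39 and 54 in the other group. NC replicate 3 was the highest library here, 5.56 times the other NC libraries, whereas it was the lowest for most collagen genes. With all 6 libraries the log2 fold change of COL3A1 was -0.11 (SE 0.67, adjusted p = 0.932), and 0.04 with scaling to total counts. It was 1.34 (SE 0.30) and called once NC replicate 3 was left out. COL27A1, a fibrillar chain known from cartilage, had 10.17, 8.94 and 2.42 FPKM in NC and 9.88, 11.93 and 11.77 FPKM in the other group, which overlap, and a log2 fold change of 0.59 (SE 0.42, adjusted p = 0.397), and 0.20 (SE 0.07) without NC replicate 3, where it passed. The fibrillar median over 6 tested genes was 1.38, and 1.22 without NC replicate 3. In the latter fit 6 of 6 passed an adjusted p under 0.05 as higher (background 16.9%).

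Type VI collagen, the main beaded filament, did not follow type I. COL6A2 (ENSG00000142173, chr21:46098112-46132848, plus strand) had 188.73, 175.96 and 68.97 FPKM in NC and 151.51, 126.00 and 126.02 FPKM in those labelled GRIK1 siRNA. COL6A1 (ENSG00000142156, chr21:45981770-46005050, plus strand) had 106.54, 98.25 and 26.67 FPKM in NC and 93.70, 83.57 and 80.96 FPKM in the other group. For both, NC replicates 1 and 2 were the highest libraries and NC replicate 3 the lowest, so the groups overlapped. With all 6 libraries the log2 fold changes were -0.16 (SE 0.31) for COL6A2 and 0.11 (SE 0.41) for COL6A1, with adjusted p of 0.768 and 0.885. They were -0.46 (SE 0.07) and -0.28 (SE 0.06) without NC replicate 3, and both then passed as lower.

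COL6A3 (ENSG00000163359, chr2:237324003-237414328, minus strand), which encodes the much longer alpha 3 chain of the same filament, had 97.20, 89.89 and 20.28 FPKM in NC and 129.12, 124.62 and 123.99 FPKM in the other group. The groups did not overlap. Its log2 fold change was 0.82 (SE 0.47, adjusted p = 0.304), and 0.40 (SE 0.05) without NC replicate 3, where it passed as higher. The chains of type VI thus lay on opposite sides of 0 in the fit without NC replicate 3. COL6A6 had at most 4 counts in a library and COL6A5 had none.

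Among the 4 tested network genes, 0 passed the edgeR test with or without NC replicate 3, 0 had an unadjusted p under 0.05 in either, and 0 passed with DESeq2. The background of the edgeR test was 1.61% higher and 1.48% lower with all 6 libraries. Without NC replicate 3 it was 16.9% and 18.3%. A count of 0 among 4 genes is too small to tell the class from that background. The basement membrane chains present were COL4A5 and COL4A6, which lie head to head on the X chromosome. COL4A5 had 6.59, 7.32 and 1.92 FPKM in NC and 6.80, 6.63 and 5.96 FPKM in the other group, and COL4A6 had 1.76, 1.65 and 0.75 FPKM against 1.68, 1.52 and 1.58 FPKM. The log2 fold changes were 0.24 (SE 0.39) and 0.15 (SE 0.26), and -0.13 (SE 0.07) and -0.12 (SE 0.11) without NC replicate 3. COL4A1 and COL4A2, the chains of the common basement membrane type IV collagen, were low, with 7 and 337 counts summed over all 6 libraries. COL8A1, a short network chain, had 8.26, 8.49 and 3.86 FPKM in NC and 8.08, 8.0 and 8.38 FPKM in the other group, with a log2 fold change of 0.19 (SE 0.24), and -0.06 (SE 0.06) without NC replicate 3. COL10A1, the type X chain known from hypertrophic cartilage, lay between 0.96 and 2.15 FPKM, with a log2 fold change of 0.44, and 0.43 without NC replicate 3. It overlaps NT5DC1 on the other strand, which had 4548 counts in all against 398 for COL10A1, and since the sources used here do not state a strand setting, reads of these genes cannot be told apart.

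Of the FACIT genes, COL16A1 was the most abundant, with 23.06, 21.10 and 5.03 FPKM in NC and 21.36, 24.15 and 23.24 FPKM in the other group, a log2 fold change of 0.44 (SE 0.44), and 0.03 (SE 0.06) without NC replicate 3. COL12A1, which associates with type I fibers, lay at 3.16 ± 1.63 FPKM in NC and 3.82 ± 0.102 FPKM in the other group (SD, n = 3 each), with a log2 fold change of 0.22, and -0.13 without NC replicate 3. COL21A1 had a log2 fold change of 0.67 (SE 0.29) and COL9A2 one of -0.72 (SE 0.32). Neither passed with all 6 libraries (adjusted p = 0.203 and 0.207), and both passed without NC replicate 3, at 0.38 and -0.87. COL9A2 was the 1 collagen gene whose groups did not overlap with NC higher in TMM-scaled CPM, where its lowest NC library had 2.17 and its highest other library 2.12. In FPKM its groups overlapped, at 0.81, 0.64 and 0.46 against 0.52, 0.28 and 0.41. COL7A1, the anchoring fibril chain of skin, had 63.35, 59.72 and 9.55 FPKM in NC and 58.91, 78.77 and 74.46 FPKM in the other group, with a log2 fold change of 0.64 (SE 0.56, adjusted p = 0.491), and 0.18 (SE 0.08) without NC replicate 3. The multiplexin COL15A1, a basement membrane zone collagen, had 1.80, 2.09 and 0.77 FPKM in NC and 2.79, 2.98 and 3.05 FPKM in the other group. Its log2 fold change was 0.86 (SE 0.29, adjusted p = 0.133), and 0.57 (SE 0.12) without NC replicate 3, where it passed.

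With all 6 libraries the median log2 fold change was 0.21 over the 4 tested network genes, 0.11 over the 3 beaded filament genes and 0.33 over the 4 FACIT genes. These were -0.09, -0.28 and -0.05 without NC replicate 3. The transmembrane genes gave no median, since COL13A1, COL17A1, COL23A1 and COL25A1 were all below the tested level. COL13A1, the most abundant of them, had 35, 31 and 19 counts in NC and 22, 23 and 7 in the other group, a ratio of summed counts per total of 0.58 (exact 95% interval 0.403 to 0.829, counting error only).

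A gene below the tested level gave the widest ratio. COL20A1, a FACIT chain on chr20:63293186-63334851, plus strand, had 6, 5 and 0 counts in NC and 36, 75 and 61 in those labelled GRIK1 siRNA. Every library of the latter group was above every NC library, at 0.26 to 0.54 FPKM. The ratio of summed counts per total was 14.8, with an exact interval of 8.08 to 30.3 for counting error. In a fit of all 34080 genes with a count, COL20A1 was called at a log2 fold change of 3.72 (SE 0.50, edgeR adjusted p = 9.22e-05), and at 3.10 without NC replicate 3. That fit called 5 collagen genes, COL20A1 and the 4 genes of types I and V, against a background of 1.95%. COL5A3 had a ratio of 3.21 (1.70 to 6.49) and did not pass there. COL11A2, COL4A2, COL4A4 and COL4A3, network and fibrillar genes with 134 to 337 counts summed over the 6 libraries, had ratios between 1.49 and 1.70, and COL18A1, with 66 counts, had 1.896. In the fit of all genes with a count, their folds were 1.37, 1.47, 1.55, 1.36 and 1.73 in that order. Without NC replicate 3 these folds were 1.14, 1.38, 1.16, 1.17 and 1.75. None of these genes passed in either fit. COL13A1 did not pass with all 6 libraries, at -0.90 on the log2 scale, and passed at -1.17 without NC replicate 3.

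As shares of the summed collagen FPKM, the fibrillar, network, beaded filament, FACIT and transmembrane classes did not overlap between the groups, while the multiplexins and the other genes did. The shares of a library add up to the whole, so a larger fibrillar share alone lowers the rest. The summed FPKM itself overlapped for the network, beaded filament, FACIT and transmembrane classes. Transmembrane genes summed to only 0.2 to 0.44 FPKM. The share over other gene sets was not computed, so the classes that did not overlap have no background. Fibrillar genes made up 38.1%, 38.7% and 38.0% in NC and 58.8%, 59.2% and 59.6% in those labelled GRIK1 siRNA. Beaded filament genes made up 48.0%, 47.1% and 50.6% in NC and 31.9%, 29.2% and 29.2% in the other group. NC replicate 3, at 229.05 summed FPKM against 818.12 and 772.88 in the other NC libraries, held the same fibrillar share as they did to within 1 percentage point. Network genes held 1.59% to 3.46% and FACIT genes 2.42% to 3.64% over the 6 libraries.

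**Figure D3:**
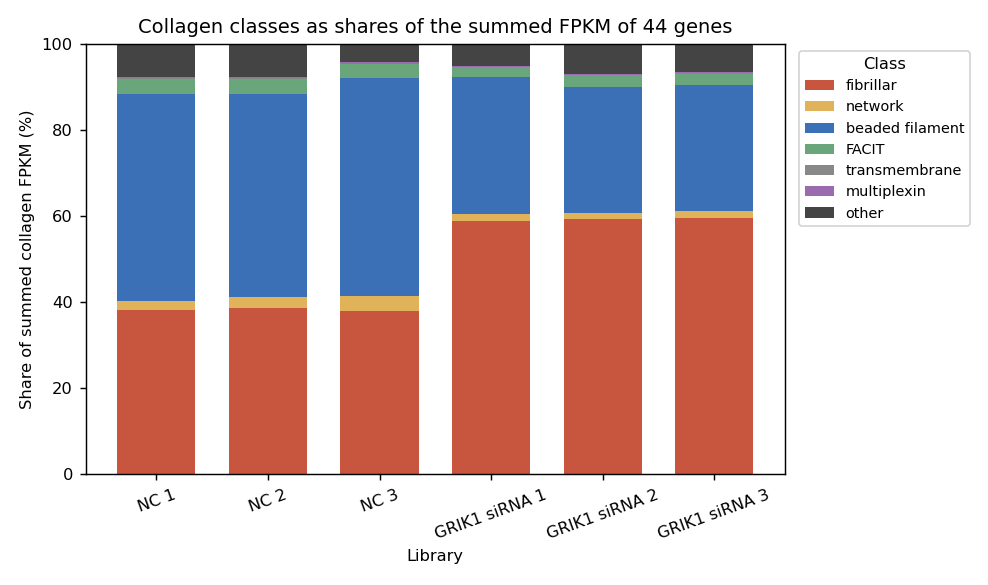
Share of each collagen class in the summed FPKM of the 44 genes, in percent, one bar per library from 0 to 100. The fibrillar share is 38.0% to 38.7% in the 3 NC libraries and 58.8% to 59.6% in the 3 libraries labelled GRIK1 siRNA. In this share NC replicate 3 is close to the other NC libraries. The class named other is 4.18% in NC replicate 3 against 7.75% and 7.73% in NC replicates 1 and 2.

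Chains that are built into the same molecule were compared as ratios of FPKM within a library, which removes what moves both chains alike. A list of chain pairs was compared, of which 5 had both chains tested, and 4 of these did not overlap between the groups. The share over other gene pairs was not computed, so this count has no background. The pairs are also not independent, since both type VI pairs hold COL6A1. COL6A3/COL6A2, the product of the ratios below for type VI, was not on the list. COL1A1/COL1A2 was 0.678, 0.642 and 0.610 in NC and 0.934, 0.798 and 0.811 in those labelled GRIK1 siRNA. COL5A1/COL5A2 was 0.683, 0.610 and 0.456 in NC and 1.08, 1.02 and 1.06 in the other group, so COL5A1 passed its partner there. COL6A1/COL6A2 was 0.565, 0.558 and 0.387 in NC and 0.618, 0.663 and 0.642 in the other group.

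COL6A3/COL6A1, the other type VI pair, was 0.912, 0.915 and 0.760 in NC and 1.38, 1.49 and 1.53 in those labelled GRIK1 siRNA. COL4A5/COL4A6 overlapped, at 2.56 to 4.44 in NC and 3.77 to 4.36 in the other group. On the log2 scale the differences were 0.40 (SE 0.08), 0.87 (SE 0.18), 0.37 (SE 0.18), 0.77 (SE 0.10) and 0.22 (SE 0.24) in the order given. The two-sided exact permutation test gave p = 0.1 for each of the first 4, the smallest that 3 libraries against 3 allow, and 0.6 for the last, or 0.125 and 0.6 adjusted over the 5 pairs. Leaving out NC replicate 3 gave 0.36, 0.70, 0.19, 0.68 and -0.0079.

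**Figure D4:**
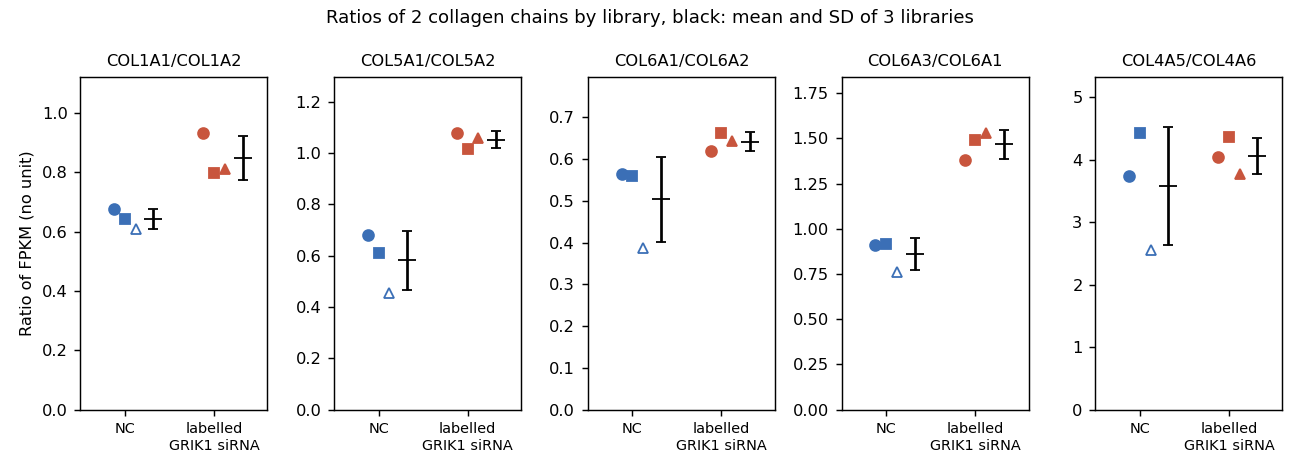
Ratio of FPKM of 2 chains of the same collagen type in each library, 1 panel per pair with its own axis from 0, blue for NC (NC replicate 3 open) and red for the libraries labelled GRIK1 siRNA, with the mean and SD of 3 libraries in black. COL5A1/COL5A2 goes from 0.583 to 1.05 and COL6A3/COL6A1 from 0.863 to 1.47 on average, and COL4A5/COL4A6 overlaps.

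NC replicate 3 was low for most collagen genes. It was the lowest of the 6 libraries for 16 of 19 tested collagen genes, against 35.8% of all tested genes, and the highest for COL3A1. Its median distance from the mean of the other NC libraries was -1.49 on the log2 scale over the 19, and -0.03 over all tested genes. Among the 8138 tested genes of similar exonic length it was -0.02, while within the 19 collagen genes the distance had a Spearman correlation of -0.619 with length, a description over genes of the same library. Across 15529 genes this distance had a Spearman correlation of -0.317 with the GC content of the transcript, given as a description over genes of 1 library, and the collagen genes had a median GC content of 54.6% against 47.6%. Within the 19 collagen genes that correlation was -0.36. Among the 11352 tested genes with a GC content in the range of the collagen genes, the median distance was -0.12. The part of RNA quality or library preparation in these values was not tested.

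Genes that modify, secrete, bind, degrade or regulate collagen were counted over lists of their own. DESeq2 counts for these lists and for the markers below use an adjusted p under 0.05. Their share over all tested genes was not computed. Of 23 genes of collagen-modifying enzymes and chaperones, 20 were tested, with a median log2 fold change of 0.36. With all 6 libraries, 3 were higher and 0 lower at an adjusted p under 0.05 in edgeR (background 1.61% and 1.48%). An unadjusted p under 0.05 was reached by 9 as higher and 1 as lower (background 25.1% in both directions together). DESeq2 gave 7 higher and 0 lower. COLGALT1, which adds galactose to hydroxylysine, had 22.85, 22.24 and 19.86 FPKM in NC and 44.71, 38.52 and 38.47 FPKM in the other group, and rose by 0.82 on the log2 scale (SE 0.12, adjusted p = 0.0291). P3H2, a prolyl 3-hydroxylase, and P3H4, a relative without that activity that works in lysine hydroxylation, rose by 0.74 and 0.69. COLGALT1, P3H2 and P3H4 had 0.82, 0.77 and 0.68 without NC replicate 3. The 3 most abundant genes, LOXL2 (a crosslinking oxidase), PPIB (a prolyl isomerase) and P4HA1 (a prolyl 4-hydroxylase subunit), had log2 fold changes of 0.32, 0.10 and -0.16 and did not pass. In the fit without NC replicate 3, 12 of the 20 passed as higher and 3 as lower (background 16.9% and 18.3%). LOXL2 then had -0.04, PPIB 0.07 and P4HA1 0.32, so LOXL2 and P4HA1 changed sign, and P4HA1 passed.

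Of 16 genes of procollagen secretion and processing, 11 were tested and 0 passed in edgeR with all 6 libraries, with a median of 0.44. An unadjusted p under 0.05 was reached by 7 of them as higher and 1 as lower (background 25.1% in both directions together), and DESeq2 gave 4 higher and 1 lower. The most abundant were SEC13 (a coat protein of secretory vesicles) at 0.36, PCOLCE (an enhancer of propeptide cleavage) at 0.24 and KLHL12 (a ubiquitin ligase adaptor for large coats) at -0.55. Without NC replicate 3, 9 passed as higher and 1 as lower (background 16.9% and 18.3%), and SEC13, PCOLCE and KLHL12 had 0.32, -0.09 and -0.40. Of 11 collagen receptor genes, 7 were tested. ITGA2, the integrin alpha 2 chain that binds type I collagen, had 5.21, 4.93 and 3.87 FPKM in NC and 10.04, 9.83 and 10.34 FPKM in the other group, and rose by 1.03 on the log2 scale (SE 0.12, adjusted p = 0.0205), and by 0.96 without NC replicate 3, where it passed without reaching the fold limit. ITGB1, DDR2 and MRC2, the other abundant receptor genes, had -0.31, -0.23 and 0.20 and did not pass with all 6 libraries. In the fit without NC replicate 3, ITGB1 had 0.15 and passed as higher, DDR2 had -0.21 and passed as lower, and MRC2 had -0.16 and did not pass. Of the 7, 2 then passed as higher and 4 as lower (background 16.9% and 18.3%).

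Of 12 genes of proteins that sit on or between fibrils, 6 were tested. SPARC, a collagen-binding matricellular protein, had 132.3, 134.5 and 80.28 FPKM in NC and 428.8, 419.1 and 418.1 FPKM in those labelled GRIK1 siRNA, and rose by 1.80 on the log2 scale (SE 0.19, adjusted p = 0.0191), and by 1.64 without NC replicate 3. It was called in both fits. TGFBI and FN1 (fibronectin) had 0.76 and 0.91 and did not pass with all 6 libraries, and had 0.51 and 0.47 and passed without NC replicate 3. Of 10 genes of collagen breakdown, 7 were tested and 0 passed in edgeR, while 4 had an unadjusted p under 0.05 as lower (background 25.1% in both directions together) and DESeq2 gave 2 lower. The most abundant, MMP2, MMP14 and CTSK (cathepsin K), had log2 fold changes of -0.06, 0.16 and -1.04, the last at an adjusted p of 0.112. These were -0.28, -0.16 and -0.53 without NC replicate 3, where MMP2 and CTSK passed and MMP14 had changed sign. In that fit 0 of the 7 passed as higher and 4 as lower (background 16.9% and 18.3%).

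Of 25 regulators of collagen genes, 23 were tested. With all 6 libraries, 0 were higher and 3 lower at an adjusted p under 0.05 in edgeR (background 1.61% and 1.48%). An unadjusted p under 0.05 was reached by 1 as higher and 7 as lower (background 25.1% in both directions together). DESeq2 gave 0 higher and 5 lower. TWIST1, a mesenchymal transcription factor, had 37.67, 36.87 and 31.25 FPKM in NC and 21.79, 21.07 and 19.94 FPKM in the other group, and fell by 0.84 on the log2 scale (SE 0.11, adjusted p = 0.024). SMAD3, which carries TGF-beta signals to collagen promoters, fell by 0.59, and RFX5, a repressor of type I collagen genes, fell by 0.56. Without NC replicate 3, TWIST1, SMAD3 and RFX5 had -0.86, -0.65 and -0.51. YBX1 and CEBPB, the most abundant on the list, had -0.46 and -0.39 and did not pass, and had -0.13 and -0.42 and passed as lower without NC replicate 3. In the fit without NC replicate 3, 4 of the 23 passed as higher and 9 as lower (background 16.9% and 18.3%).

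Fibroblasts are the classical source of fibrillar collagen, and their markers were summed beside these values. Of 8 fibroblast markers other than collagens, 6 were tested and 0 passed in edgeR with all 6 libraries, 3 had an unadjusted p under 0.05 as lower (background 25.1% in both directions together), and DESeq2 gave 1 lower. Without NC replicate 3, 1 passed as higher (DCN, 0.25) and 3 as lower (background 16.9% and 18.3%), and the median log2 fold change of the 6 was -0.03 against -0.32 with all libraries. The summed level of the list was lower in each library labelled GRIK1 siRNA, at 58.9 to 65.1 FPKM in NC and 52.2 to 53.96 FPKM in the labelled group, with FAP, PRRX1 and LUM the most abundant, DPT at 0 counts and THY1 at most at 1 count in every library. The 6 endothelial markers summed to 1.63 to 2.41 FPKM in NC and 1.69 to 2.21 FPKM in the other group, nearly all of it KDR. The 5 immune markers summed to 3.58 to 4.40 and 5.09 to 5.27 FPKM, mainly CD68 and CSF1R, with CD3E at 0 counts, and the 5 neuronal markers to 4.49 to 5.40 and 5.30 to 5.55 FPKM, mainly MAP2 and SNAP25. The part of these markers in the collagen values was not tested.

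The COL5A1 promoter is shown because this was the gene called with all 6 libraries, as the 250 bases before the RefSeq start on GRCh38.p14, chr9:134641553-134641802, plus strand. Capitals mark the GC box GGGCGG in either orientation, of which there were 2, and the GC content was 74.0%.
COL5A1: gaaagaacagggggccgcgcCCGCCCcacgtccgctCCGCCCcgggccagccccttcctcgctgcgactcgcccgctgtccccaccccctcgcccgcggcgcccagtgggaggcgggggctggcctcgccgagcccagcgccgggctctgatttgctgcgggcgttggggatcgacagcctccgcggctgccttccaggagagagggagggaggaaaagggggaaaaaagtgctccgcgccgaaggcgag

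RefSeq windows from 250 bases before to 50 after the start were matched for 32 of the 44 collagen genes, with 44 windows. A GC box (GGGCGG, both strands) was found in 54.5% of these windows and in 44.95% of all 35116 windows. The CCAAT box (CCAAT, both strands) was found in 31.8% and 34.6%, the TATA box (TATAAA, both strands) in 18.2% and 11.5%, and the SMAD-type box CAGACA (both strands) in 11.4% and 16.9%. The motifs do not overlap in their letters, and a match says only that the letters are there.

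The type IV genes are arranged in pairs on opposite strands, with starts close together: 127 bases for COL4A1 and COL4A2, 419 for COL4A4 and COL4A3, and 380 for COL4A6 and COL4A5. The stretch between the starts of COL4A1 and COL4A2 (chr13:110307158-110307283, plus strand, GRCh38.p14) is shown because both genes, whose transcripts start on either side of it, were low in every library. Capitals mark 1 CCAAT box and 1 GC box.
COL4A1 and COL4A2: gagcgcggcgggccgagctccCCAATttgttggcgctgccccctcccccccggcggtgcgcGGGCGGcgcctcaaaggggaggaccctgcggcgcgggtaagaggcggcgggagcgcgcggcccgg
COL4A1 had 2, 0 and 3 counts in NC and 0, 2 and 0 in the other group, and COL4A2 had 45, 41 and 39 and 67, 70 and 75. Of the other pairs, COL4A5 and COL4A6 were both expressed and neither passed the test, and COL4A3 and COL4A4 had 8 to 45 counts per library.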

How the data were processed

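RNA of U87-MG cells was sequenced in 3 NC libraries and 3 libraries labelled GRIK1 siRNA, grouped by their titles, whose numbers served as replicate numbers. The authors deposited whole-number read counts for 61806 genes and FPKM values, which are those counts scaled to the library total and the exonic length of the gene. This formula gave 100% of the FPKM values when checked. The submitters' processing notes name cutadapt 1.9.1, HISAT2, HTSeq and GRCh38, and the strand setting is not given in the sources used here. Entries that name no gene numbered 0. The FPKM of genes that share reads with an overlapping gene is uncertain.

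The 15870 genes that averaged 0.5 FPKM or more were tested by quasi-likelihood in edgeR 4.0.16 (R 4.3.3) after TMM scaling, with no covariate and Benjamini-Hochberg adjustment over all of them. A call needed both an adjusted p below 0.05 and a change of more than 1 on the log2 scale in either direction. The SE of a fold change is its size divided by the square root of the test's F. Chain ratios and GRIK1 (on log2(FPKM + 1)) were compared with two-sided exact permutation tests. The test was tried on simulated counts of 15870 genes. Alternatives were median-of-ratios and total count scaling, DESeq2 1.42.0, no filter, a mean of at least 1 FPKM, a fold of 1.5, a replicate block and leaving out each library. Combinations of some of these with leaving out NC replicate 3 were added after the data were seen.

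The collagen genes, the other gene lists and the tests were chosen with earlier results of these data known. Values per library are given for collagen genes that average 5 FPKM or more, with an unadjusted p under 0.05 or in a chain pair with both tested. From each other list, at most 5 members with an adjusted p under 0.05 and the 3 most abundant are named, most of them by their log2 fold change alone. Others that are named, among them COL20A1, COL13A1, COL5A3, COL4A2 and COL3A1, were chosen after their values were seen. The table's coordinates were read as GRCh38, since all 44 collagen genes are in GENCODE 29, 11 of them with the same start, end and strand. Coding exons came from GENCODE 29 and promoters from RefSeq on GRCh38.p14. Total counts of 11099909 to 14006968 per library set the counting error, which does not cover the spread between libraries. A count of 0 in a library allows up to 3 (95% limit, counting error only).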

Additional observations from a re-analysis of the deposited data

How the results depend on the processing

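The number of genes called and the number of collagen genes that passed depended on the processing, and the cause was not tested. Over all genes, 224 were called, and 490 with DESeq2, 664 with no filter and 471 at a fold of 1.5. Without NC replicate 3, calls were 795 with no filter, 374 with DESeq2 and 492 with total count scaling. Leaving out each library in turn gave 0 to 491, with 491 only when NC replicate 3 was left out and 0 for each of the other 5, where 2238 to 4434 genes still had an unadjusted p under 0.05. Collagen genes called were 1 in the report, and 0 with total count scaling, 4 with DESeq2 and 5 with no filter. Without NC replicate 3 they were 6 with no filter, 4 with DESeq2 and 4 with total count scaling, and leaving out each library in turn gave 0 to 4. Collagen genes with an adjusted p under 0.05 were 1 in the report, 0 with total count scaling, 4 with DESeq2 and 6 with no filter. Without NC replicate 3 they were 14, 9 and 12 with no filter, DESeq2 and total count scaling. On leaving out each library in turn they were 0 to 12. The background of the report at this threshold was 1.61% higher and 1.48% lower. For the 12 in edgeR without NC replicate 3 it was 16.9% and 18.3%. For the other settings this share was not computed. Where the count was 0, 4 to 7 collagen genes had an unadjusted p under 0.05. With the replicate block, 0 genes and 0 collagen genes were called in edgeR, 0 collagen genes had an adjusted p under 0.05, and 3324 genes and 7 collagen genes had an unadjusted p under 0.05. Libraries with the same number did not deviate together from their group means (correlations of -0.07, 0.04 and -0.04). Since NC replicate 3 dominates the deviations within NC, this check could hardly show a pairing. Whether the numbers mark a pairing is not settled. COL3A1 changed sign to 0.0401 with total count scaling and to 0.32 with the block. On leaving out each library in turn, the log2 fold change ran from -0.46 to 0.0513 for COL6A2, -0.28 to 0.39 for COL6A1, -0.0633 to 0.35 for COL8A1, -0.13 to 0.54 for COL4A5, -0.13 to 0.46 for COL12A1, -0.12 to 0.33 for COL4A6 and -0.50 to 1.34 for COL3A1. The log2 ratio of COL4A5 to COL4A6 ran from -0.0079 to 0.39, and GRIK1 from -0.0605 to 0.35. The other 4 chain ratios and the fibrillar median kept their direction in all alternatives run. The median log2 fold change over all tested genes was -0.02, and 0.07 with total count scaling. Counts of a few reads, as for COL20A1 in NC, limit the folds of the scarce genes.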

Other observations

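Besides the 44 collagen genes, the table lists 10 entries whose symbols are built on a collagen symbol, as antisense transcripts, divergent transcripts or pseudogenes. COL18A1-AS1, COL18A1-AS2, COL4A2-AS1, COL4A2-AS2, COL11A2P1 and COL25A1-DT had 0 counts in all 6 libraries. COL6A4P1, COL6A4P2 and COL6A2-DT had at most 2 counts in a library. COL5A1-AS1, which lies within COL5A1 on the other strand, had 6, 5 and 1 counts in NC and 4, 22 and 15 in those labelled GRIK1 siRNA, so the groups overlapped. In the edgeR fit of all genes with a count its log2 fold change was 1.53, at an adjusted p of 0.207. Without a stated strand setting, its reads and those of COL5A1 cannot be told apart.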
